A study of Mus musculus with 12 samples.

Results

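The 9 genes described here encode the receptors through which ADP, ATP, thrombin and thromboxane reach the platelet, and the enzymes that make thromboxane and 12-HETE. They are P2ry1, P2ry12, P2rx1, F2rl2, F2rl3, Tbxa2r, Ptgs1, Tbxas1 and Alox12. They were chosen by function and matched by gene symbol, and all 9 were found among the 46603 gene identifiers of the count tables. All 9 also passed the filter on low counts in every test.

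Platelets are small cells without a nucleus that megakaryocytes shed into the blood, and they still hold messenger RNA. At a wound, thrombin, ADP and ATP act on receptors of the platelet surface, and the activated platelet then makes thromboxane A2, which acts on its neighbours. Thromboxane is made from arachidonic acid by cyclooxygenase 1 and thromboxane synthase, whereas platelet 12-lipoxygenase turns the same fatty acid into 12-HETE. The spleen stores platelets and also contains macrophages, other leukocytes, endothelium and smooth muscle, in which several of these receptors and enzymes are made too.

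The study profiled messenger RNA of blood and spleen from mice lacking nuclear myosin 1 (NM1 KO) and from wild-type mice (WT). Its stated subject is how NM1 bears on platelet activation and immunity. The groups were KO spleen, WT spleen, KO blood and WT blood, with 3 libraries each, all from C57/Bl6 mice aged 8 months. Blood was drawn from the submandibular vein and spleen tissue was taken from the tip of the organ. NM1 is a nuclear form of the motor protein made from Myo1c, and the labels used here do not describe the allele or the animals' sex. They also do not say whether each library came from its own mouse, so all p-values measure the spread between these libraries, which may be partly technical.

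The libraries fell into 2 kinds that cut across the tissue labels. Globin took 48.9% to 56.1% of counts in 6 libraries, called globin-rich here because globin exceeded 25% of counts, and 0.846% to 5.90% in the other 6, called globin-poor. The globin-rich libraries were those labelled spleen KO 03, spleen WT 02, spleen WT 04, blood KO 02, blood KO 03 and blood WT 01, with totals of 9317793 to 12096089 counts, against 23140497 to 28243206 in the globin-poor libraries. Levels are in CPM, the count of a gene scaled to the library's total count without globin. Markers of stroma and endothelium (10 genes) had a summed level of 1.28 to 15.5 CPM in globin-rich libraries labelled spleen, where 1 to 5 of them had 0 counts, and of 790.3 to 1116 CPM in the globin-poor libraries labelled blood. Those of red pulp macrophages (10 genes) came to 25.7 to 41.0 CPM and to 1025 to 1493 CPM in the same libraries. In 6 of the 12 libraries the markers therefore went against the tissue label. Values are given by label and by kind, and spleen and blood refer to the labels throughout. Myo1c, which a gene-level count sums over all its forms, stood at 128 to 169.7 CPM in KO spleen against 58.5 to 179.8 CPM in WT spleen, while KO blood had 149.7 to 199.6 CPM against 163 to 219 CPM in WT blood, and these values do not check the knockout.

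The 9 genes lie on 7 chromosomes of the GRCm38 assembly. P2ry12 (chr3:59216272-59262871, minus strand) and P2ry1 (chr3:61002795-61008982, plus strand) share chromosome 3. Alox12 (chr11:70241457-70255353, minus strand) and P2rx1 (chr11:72999103-73015200, plus strand) share chromosome 11 with Myo1c, at distances of 5.40 and 2.64 Mb from it. F2rl2 is at chr13:95696853-95702739, F2rl3 at chr8:72761880-72763874, Tbxa2r at chr10:81328731-81335172, Ptgs1 at chr2:36230426-36252272 and Tbxas1 at chr6:38875404-39084585, all on the plus strand. The strand setting of the counting is not given in the sources used here, and 5 of the 9 genes overlap an annotated gene on the other strand. P2ry12 overlaps Med12l, F2rl2 overlaps Iqgap2, Tbxas1 overlaps Hipk2, P2ry1 overlaps Gm37035 and Ptgs1 overlaps Gm43621, so part of the counts of either gene of such a pair may belong to the other. P2rx1, F2rl3, Tbxa2r and Alox12 overlap no annotated gene.

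The 200 bases before the RefSeq start site (GRCm38.p6) are shown for 2 genes that followed the platelet markers to different degrees, Alox12 and Ptgs1, and for 2 that did not follow them between the kinds, F2rl3 and Tbxa2r. Tbxa2r has 2 RefSeq starts, and the window shown is that of the start farther upstream. These 4 windows held no annotated exon. Capitals mark the motif of GATA factors (AGATAA or TGATAA) and that of ETS factors (AGGAAG or CGGAAG), searched on both strands, and no match of one motif overlapped the other. GATA1 and the ETS factor FLI1 are known regulators of megakaryocyte genes.
Alox12, chr11:70255371-70255570, minus strand: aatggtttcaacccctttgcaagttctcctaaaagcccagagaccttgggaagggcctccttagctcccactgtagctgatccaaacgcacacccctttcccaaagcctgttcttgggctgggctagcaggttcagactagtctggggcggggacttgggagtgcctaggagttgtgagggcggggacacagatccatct
Ptgs1, chr2:36230226-36230425, plus strand: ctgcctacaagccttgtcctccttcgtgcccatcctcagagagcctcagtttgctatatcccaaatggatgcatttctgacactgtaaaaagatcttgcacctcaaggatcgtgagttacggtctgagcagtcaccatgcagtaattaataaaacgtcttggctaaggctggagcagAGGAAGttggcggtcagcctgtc
F2rl3, chr8:72761459-72761658, plus strand: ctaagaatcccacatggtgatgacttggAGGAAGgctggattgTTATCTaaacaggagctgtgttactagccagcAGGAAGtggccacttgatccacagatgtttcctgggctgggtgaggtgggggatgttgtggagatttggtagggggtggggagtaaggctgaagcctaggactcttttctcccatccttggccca
Tbxa2r, chr10:81328068-81328267, plus strand: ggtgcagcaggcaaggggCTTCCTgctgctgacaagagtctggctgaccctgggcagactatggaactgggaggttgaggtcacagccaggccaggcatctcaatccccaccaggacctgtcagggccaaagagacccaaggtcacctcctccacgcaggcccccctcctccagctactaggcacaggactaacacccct
The Alox12 window held neither motif, the Ptgs1 window 1 ETS match 18 to 23 bases before the start, the F2rl3 window 1 GATA and 2 ETS matches, and the Tbxa2r window shown 1 ETS match. The window of the other Tbxa2r start (chr10:81328503-81328702) held neither motif. Among the genes not shown, the window of F2rl2 held 1 GATA and 1 ETS match, that of Tbxas1 2 ETS matches and that of P2ry12 1 ETS match. Those of P2ry1 and P2rx1 held neither motif. Each of these windows overlapped an annotated exon. Of 32851 RefSeq promoter windows of this length, 13.2% held the GATA motif, 33.9% the ETS motif and 3.6% both. A match is a description of the letters and says nothing of binding.

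In CPM with globin left out, globin-rich libraries carried more transcript of 5 of the 9 genes than any globin-poor library did. Alox12, P2ry12, P2rx1, F2rl2 and Tbxas1 lay higher in all 6 globin-rich than in all 6 globin-poor libraries, which held for 3.03% of 18109 genes. Tbxa2r alone lay lower in all 6, which held for 42.1% of genes. P2ry1, F2rl3 and Ptgs1 overlapped. Since the kinds were defined from the data, these differences are described and not tested. All 15 platelet markers, among them Pf4, Itga2b and Gp9, also lay higher in every globin-rich library and summed to 4190 to 12444 CPM there, against 343 to 601 CPM in globin-poor libraries. In bulk RNA fewer platelets and less RNA per platelet cannot be told apart. The median gene was lower in globin-rich libraries by 1.05 on the log2 scale, so a log2 ratio near -1.05 marks a gene that moved with the median.

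**Figure D1:**
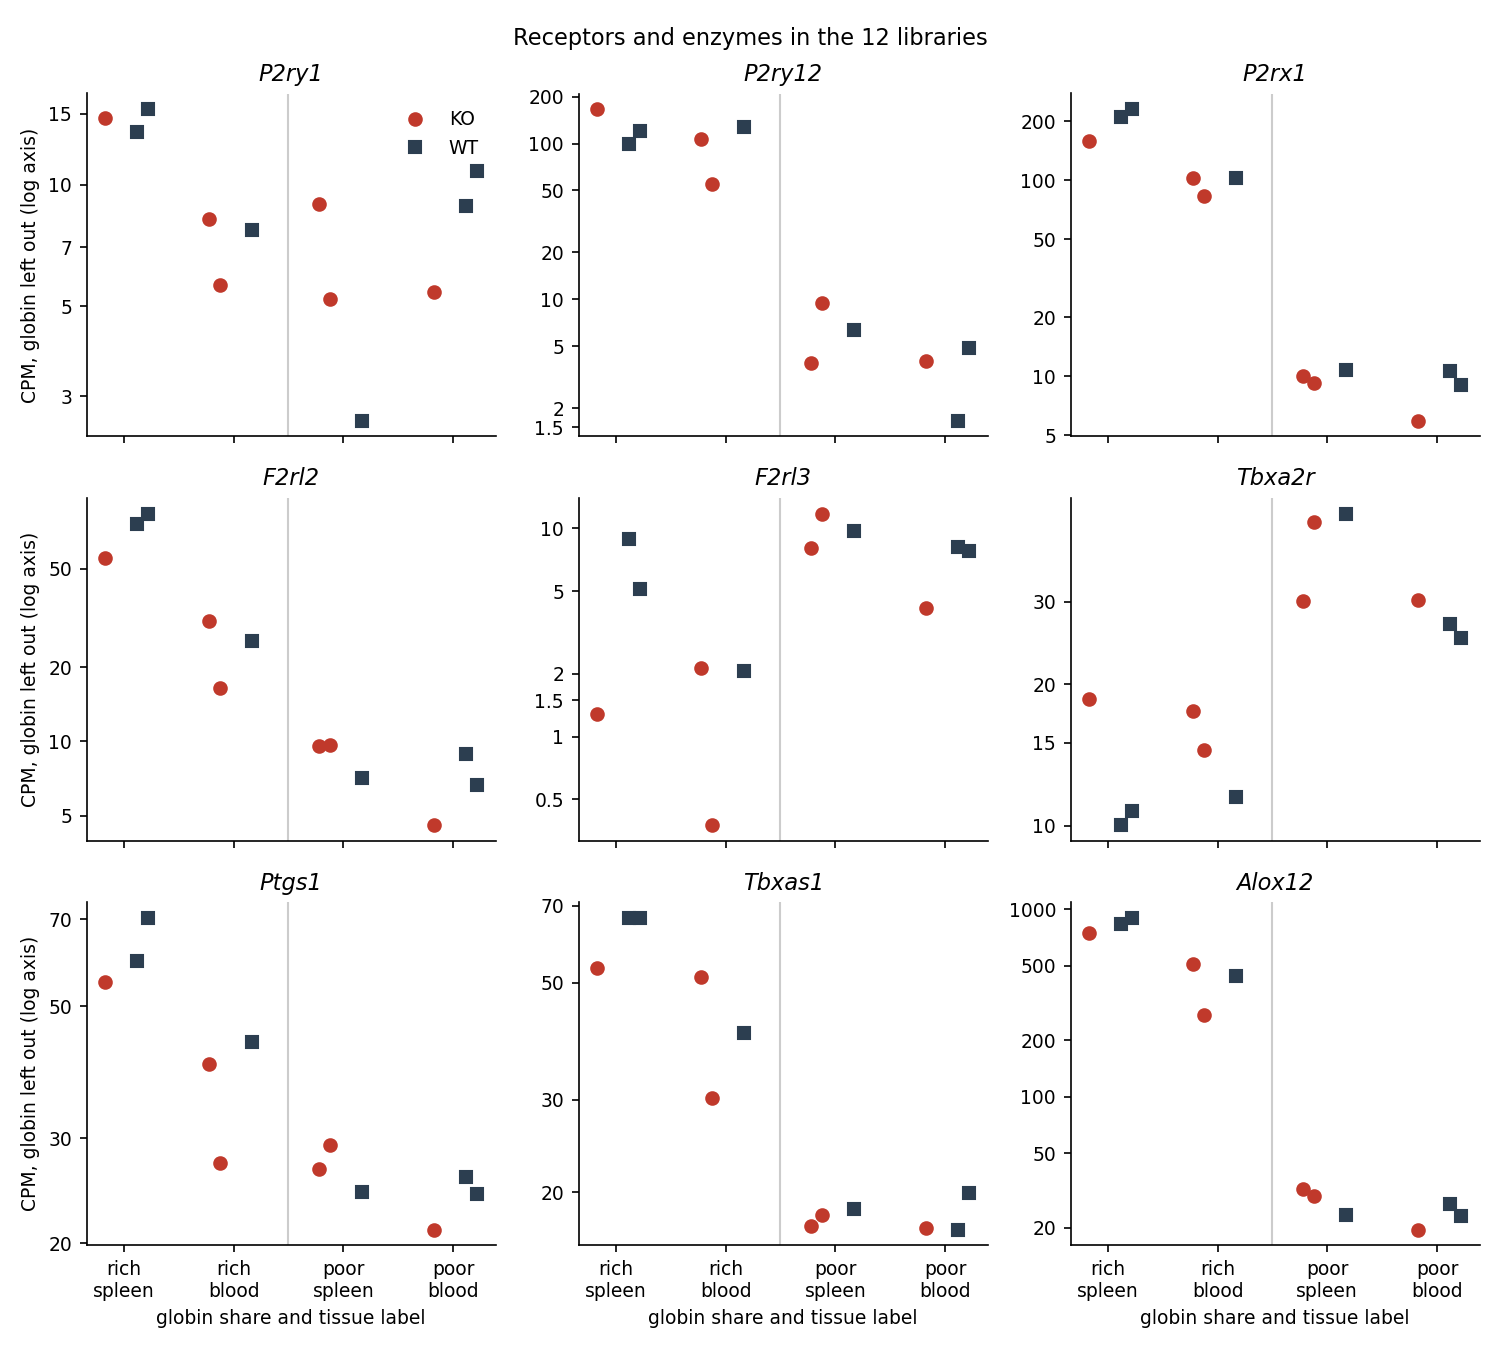
Level of each gene in each library, in CPM with globin left out on a log axis, by globin share and tissue label; circles are KO and squares are WT libraries. P2ry12, P2rx1, F2rl2, Tbxas1 and Alox12 are higher in all 6 globin-rich libraries than in all 6 globin-poor ones, and Tbxa2r is lower.

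The ADP and ATP receptors did not share one pattern. P2ry12 encodes the Gi-coupled ADP receptor that sustains aggregation and is the target of clopidogrel. In globin-rich libraries it stood at 167 CPM in KO spleen against 99.9 and 120.0 CPM in WT spleen, while KO blood had 106 and 54.8 CPM against 129 CPM in WT blood. In globin-poor libraries it stood at 3.87 and 9.52 CPM in KO spleen against 6.33 CPM in WT spleen, while KO blood had 4.01 CPM against 1.65 and 4.86 CPM in WT blood. The kinds differed 22.4-fold in their means (113 ± 36.8 against 5.04 ± 2.67 CPM, SD, n = 6 each), and the lowest globin-rich library, blood KO 03, was still above every globin-poor one. Med12l, the gene that overlaps P2ry12, stood at 4.70 to 24.2 CPM in globin-rich libraries against 1.85 to 4.07 CPM in globin-poor ones, and its part in these counts was not tested.

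P2rx1, the ATP-gated cation channel of platelets, showed a similar split. It had 158 CPM in KO spleen against 209.8 and 230.2 CPM in WT spleen, and 103 and 83.0 CPM in KO blood against 102 CPM in WT blood, all globin-rich. In globin-poor libraries it had 9.96 and 9.20 CPM in KO spleen against 10.7 CPM in WT spleen, and 5.90 CPM in KO blood against 10.6 and 9.04 CPM in WT blood. The log2 ratio of globin-rich to globin-poor means was 4.00. P2ry1 encodes the Gq-coupled ADP receptor that starts shape change, and it did not separate the kinds. Its globin-rich levels were 14.6 CPM in KO spleen against 13.5 and 15.4 CPM in WT spleen, and 8.23 and 5.64 CPM in KO blood against 7.72 CPM in WT blood. Its globin-poor levels were 8.98 and 5.20 CPM in KO spleen against 2.60 CPM in WT spleen, and 5.42 CPM in KO blood against 8.86 and 10.8 CPM in WT blood. The log2 ratio of the kinds was 0.64 with globin left out of the totals and -0.41 over all counts, a scaling that moved the median gene down as well, to -2.07. Relative to the median gene P2ry1 was higher in globin-rich libraries by 1.68 and 1.65 under these scalings, at the 84.4 and 84.1 percentiles of all genes.

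Of the thrombin receptors, F2rl2 and F2rl3 lay apart. F2rl2 encodes protease-activated receptor 3, which on mouse platelets helps thrombin to cleave receptor 4. It stood at 55.2 CPM in KO spleen against 75.7 and 83.6 CPM in WT spleen, while KO blood had 30.6 and 16.5 CPM against 25.4 CPM in WT blood, all globin-rich. In globin-poor libraries it stood at 9.63 and 9.72 CPM in KO spleen against 7.13 CPM in WT spleen, while KO blood had 4.58 CPM against 8.86 and 6.65 CPM in WT blood. The globin-rich mean was 6.16 times the globin-poor mean, and the 3 globin-rich spleen libraries were the highest of all 12. In CPM over all counts the log2 ratio of F2rl2 was 1.55 and the kinds overlapped, but relative to the median gene it was 3.61. Iqgap2, which overlaps F2rl2, ran the other way on the whole, with 11.8 to 31.7 CPM in globin-rich libraries against 23.8 to 54.8 CPM in globin-poor ones, and its part in the F2rl2 counts was not tested either.

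F2rl3 encodes protease-activated receptor 4, the receptor that passes the thrombin signal into mouse platelets. In globin-rich libraries it had 1.28 CPM in KO spleen against 8.92 and 5.13 CPM in WT spleen, and 2.15 and 0.376 CPM in KO blood against 2.06 CPM in WT blood. The value of blood KO 03 rests on 2 counts, under the 3 counts (0.564 CPM in that library) that a count of 0 allows, and that of spleen KO 03 on 7 counts. In globin-poor libraries F2rl3 had 8.03 and 11.8 CPM in KO spleen against 9.70 CPM in WT spleen, and 4.14 CPM in KO blood against 8.17 and 7.76 CPM in WT blood. Its log2 ratio of globin-rich to globin-poor was -1.32, at the 41.2 percentile of all genes and close to the median gene. F2rl3 thus stood among typical genes where all 15 platelet markers stood high.

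Tbxa2r encodes the thromboxane receptor, which platelets share with smooth muscle, endothelium and immune cells. In globin-rich libraries it had 18.6 CPM in KO spleen against 10.01 and 10.8 CPM in WT spleen, and 17.5 and 14.5 CPM in KO blood against 11.5 CPM in WT blood. In globin-poor libraries it had 30.1 and 44.5 CPM in KO spleen against 46.3 CPM in WT spleen, and 30.3 CPM in KO blood against 27.0 and 25.1 CPM in WT blood. The globin-poor mean was 2.45 times the globin-rich mean, but the log2 ratio of -1.29 lay only 0.25 below that of the median gene. With scaling by trimmed means (TMM) the kinds overlapped for Tbxa2r, at a log2 ratio of -0.29. The receptor for thromboxane therefore did not share the pattern of the enzymes that make it.

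Of the 3 enzymes, Alox12 and Tbxas1 lay higher in every globin-rich library, whereas the kinds overlapped for Ptgs1. Alox12, platelet 12-lipoxygenase, had the widest split of the 9. It stood at 743 CPM in KO spleen against 835 and 899 CPM in WT spleen, while KO blood had 510.0 and 272 CPM against 443 CPM in WT blood, all globin-rich. In globin-poor libraries it stood at 32.2 and 29.7 CPM in KO spleen against 23.5 CPM in WT spleen, while KO blood had 19.6 CPM against 26.9 and 23.2 CPM in WT blood. The ratio of the means was 23.9, at the 96.9 percentile of all genes. Tbxas1, thromboxane synthase, had 30.2 to 66.4 CPM in globin-rich libraries against 17.0 to 20.0 CPM in globin-poor ones, a ratio of 2.85. In CPM over all counts its log2 ratio was 0.46 and the kinds overlapped, but relative to the median gene it was 2.53. Ptgs1, cyclooxygenase 1 and the target of aspirin in platelets, had 27.2 to 70.4 CPM in globin-rich libraries against 21.1 to 29.2 CPM in globin-poor ones. For Ptgs1 the log2 ratio was 0.97, and -0.084 when globin stayed in the totals, but relative to the median gene it was 2.01 and 1.98 under these scalings, at the 86.8 and 86.6 percentiles of all genes. Macrophages also make Ptgs1 and Tbxas1, and 9 of 10 red pulp macrophage markers lay lower in every globin-rich library, but their part in these levels was not tested.

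Per kilobase of annotated exon, Alox12 led the 9 genes in globin-rich libraries and Tbxa2r led them in globin-poor ones. Mean levels in globin-rich libraries were 151 CPM per kb for Alox12, 56.3 for P2rx1, 44.3 for P2ry12, 19.1 for F2rl2, 12.7 for Ptgs1, 7.20 for Tbxa2r, 5.64 for Tbxas1, 2.53 for P2ry1 and 1.66 for F2rl3. The range of each gene over the 6 libraries overlapped that of its next neighbour in that order. Compared within each single library, Alox12 lay above P2rx1, P2ry12 above F2rl2 and Tbxas1 above P2ry1 in all 6. The neighbouring genes of the order given above otherwise changed places between libraries. In globin-poor libraries Tbxa2r averaged 17.6 CPM per kb (13.1 to 24.1) and did not overlap Ptgs1 at 6.49 (5.42 to 7.52) or Alox12 at 6.32 (4.79 to 7.88). F2rl3 followed at 4.14, P2rx1 at 3.52, F2rl2 at 3.10, Tbxas1 and P2ry12 both at 1.98 and P2ry1 at 1.63 CPM per kb. Lengths are of all annotated exons merged, which is longest for Tbxas1 (9094 bases) and may understate its level.

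Set against the platelet markers of the same library, Alox12, P2rx1 and P2ry12 had medians of similar size in both kinds, and the other 6 genes did not. Alox12 had 60.9 to 77.6 counts per 1000 counts of the 15 platelet markers in globin-rich libraries and 48.4 to 60.6 in globin-poor ones. Its medians were 68.2 and 51.0, and every globin-rich library lay above every globin-poor one, by a narrow margin at the nearest. P2rx1 had 12.98 to 19.8 in globin-rich and 15.3 to 22.4 in globin-poor libraries. P2ry12 varied more, with 8.37 to 19.3 in globin-rich and 2.97 to 15.8 in globin-poor libraries, and medians of 13.4 and 11.4. The other 6 genes carried more counts per platelet marker count in every globin-poor library. Tbxa2r had 0.839 to 3.45 in globin-rich and 48.5 to 96.4 in globin-poor libraries, F2rl3 had 0.0897 to 0.748 and 12.1 to 20.2, and Ptgs1 had 4.50 to 6.53 and 46.4 to 61.3. Tbxas1 had 4.38 to 7.81 in globin-rich and 30.1 to 49.9 in globin-poor libraries, and F2rl2 had 3.80 to 6.72 and 13.3 to 18.1. P2ry1 was within 1.13 to 1.34 counts per 1000 in the 6 globin-rich libraries, the narrowest range of the 9 there, and spread from 5.43 to 24.6 in the globin-poor ones. Its globin-rich values rest on 30 to 80 counts per library, and their narrow range was not set against counting error. Stromal and macrophage markers were high in the globin-poor libraries, and their part in these ratios was not tested.

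**Figure D2:**
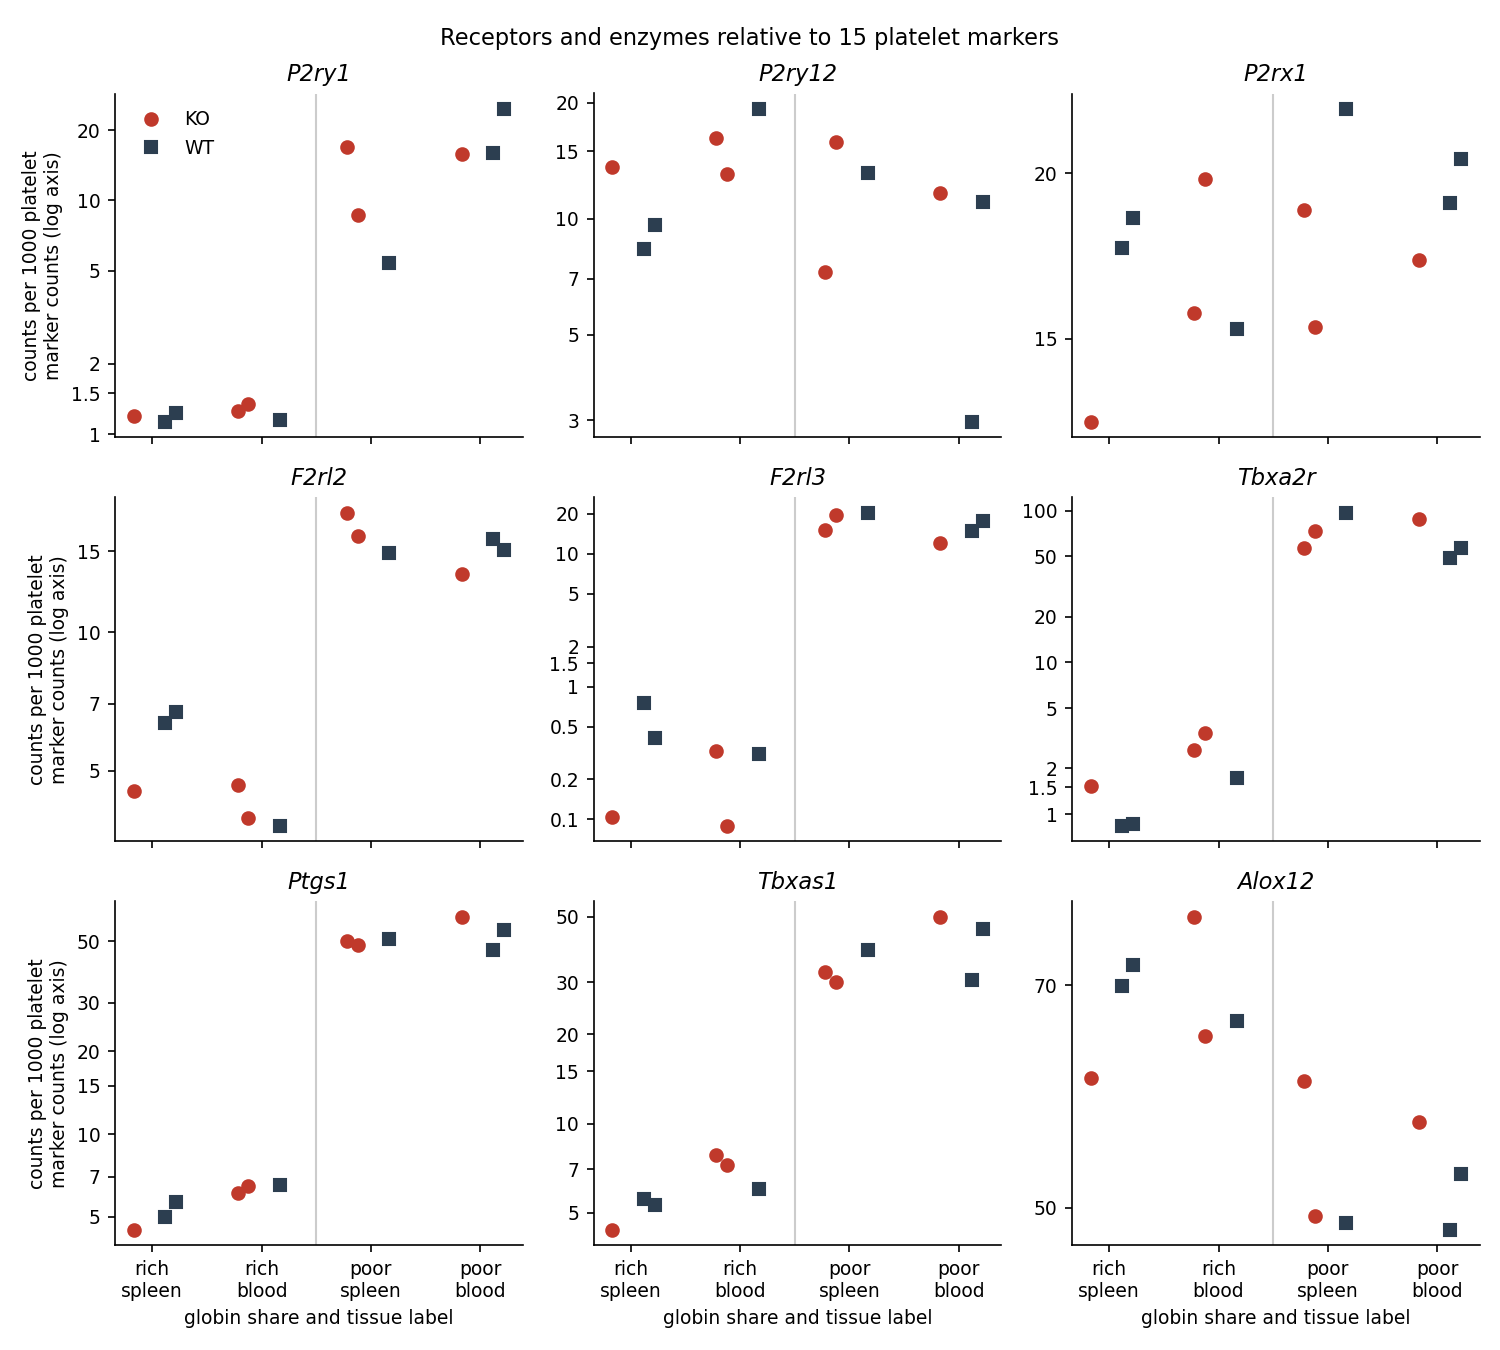
Counts of each gene per 1000 counts of 15 platelet markers, on a log axis, by globin share and tissue label; circles are KO and squares are WT libraries. P2ry1 lies within 1.13 to 1.34 in all 6 globin-rich libraries, and P2ry1, F2rl2, F2rl3, Tbxa2r, Ptgs1 and Tbxas1 are higher in all 6 globin-poor libraries than in all 6 globin-rich ones.

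Within the globin-rich libraries, spleen labels carried more of the platelet genes than blood labels. The test was edgeR's quasi-likelihood test in 1 fit of all 12 libraries, with tissue label by globin share as 4 strata and genotype as a further term, and p-values were adjusted by the Benjamini-Hochberg method over 18118 genes. Of the 9 genes, 4 were higher in globin-rich spleen than in globin-rich blood at an adjusted p under 0.05, beside 0.778% of all genes tested. F2rl2 averaged 71.5 ± 14.6 CPM in spleen and 24.2 ± 7.10 CPM in blood (SD, n = 3 each), a log2 difference of 1.81 ± 0.31 (SE, edgeR adjusted p = 0.0159). Alox12 averaged 826 ± 78.4 CPM in spleen and 408 ± 123 CPM in blood, a log2 difference of 1.33 ± 0.27 (edgeR adjusted p = 0.0293). P2rx1 rose by 1.21 ± 0.25 (edgeR adjusted p = 0.0313) and Ptgs1 by 1.01 ± 0.22 (edgeR adjusted p = 0.0452) on the log2 scale.

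The other 5 genes did not pass. Log2 differences of spleen over blood were 1.35 ± 0.45 for P2ry1, 1.76 ± 0.66 for F2rl3, 0.90 ± 0.23 for Tbxas1, 0.74 ± 0.33 for P2ry12 and 0.18 ± 0.26 for Tbxa2r, with edgeR adjusted p-values of 0.243, 0.307, 0.0978, 0.413 and 0.876. Libraries did not overlap for 6 genes, P2ry1, P2rx1, F2rl2, Ptgs1, Tbxas1 and Alox12, all higher in spleen, as for 3.11% of all genes. The median over the 9 genes was 1.21, against 0.025 over all genes tested, and that of the 15 platelet markers was 1.33, with 10 of the 15 called higher. The platelet marker sum was 11935 to 12444 CPM in globin-rich spleen and 4190 to 6679 CPM in globin-rich blood.

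Scaled by the platelet markers in place of all genes, the log2 difference of spleen over blood was 0.46 ± 0.50 for F2rl2, -0.019 ± 0.35 for Alox12, -0.14 ± 0.43 for P2rx1 and -0.34 ± 0.39 for Ptgs1, and none of the 4 remained called. On that scale Tbxa2r was called lower, by -1.13 ± 0.39 (edgeR adjusted p = 0.0103), but 9382 of 18118 genes were called there. Leaving out 1 library brought the count of called genes to between 0 and 6, with 0 without blood WT 01 or spleen WT 04 (where 1 and 4 genes of all were called), 6 without spleen KO 03 (194 genes of all, against 153 with every library), 2 without blood KO 03 and 1 without each of the other 8. F2rl2 stayed called in 10 of these 12 fits. Stromal markers were near 0 in all 3 globin-rich spleen libraries, so without libraries whose markers go against their label this comparison cannot be made. Neutrophil markers summed to 5118 CPM in spleen KO 03 and to 910.0 to 1693 CPM in the other 5 globin-rich libraries, and their part was not tested.

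In globin-poor libraries none of the 9 genes was called between spleen and blood labels, against 1.09% of genes called by the same edgeR test. None had an unadjusted p under 0.05, and DESeq2 and limma-voom called none of the 9 either. Log2 differences of spleen over blood lay between -0.80 ± 0.45 for P2ry1 and 0.74 ± 0.54 for F2rl3. The libraries of the labels overlapped for all 9, whereas 32.1% of all genes did not overlap. The difference of the label effects, globin-rich minus globin-poor, was called by edgeR for 0 of 9 genes, beside 0.171% of all genes, although 6 of 9 had an unadjusted p under 0.05, as had 17.1% of all genes. It was 1.51 ± 0.47 for F2rl2 (edgeR adjusted p = 0.134), 2.15 ± 0.68 for P2ry1 (edgeR adjusted p = 0.14) and 1.21 ± 0.40 for Alox12 (edgeR adjusted p = 0.151) on the log2 scale. DESeq2 called 5 of the 9 among 1376 genes. EdgeR called 5 among 746 genes without spleen KO 03 and 1 among 801 genes without spleen KO 01, against 31 genes with all libraries, so these fits called more genes of all kinds.

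**Figure D3:**
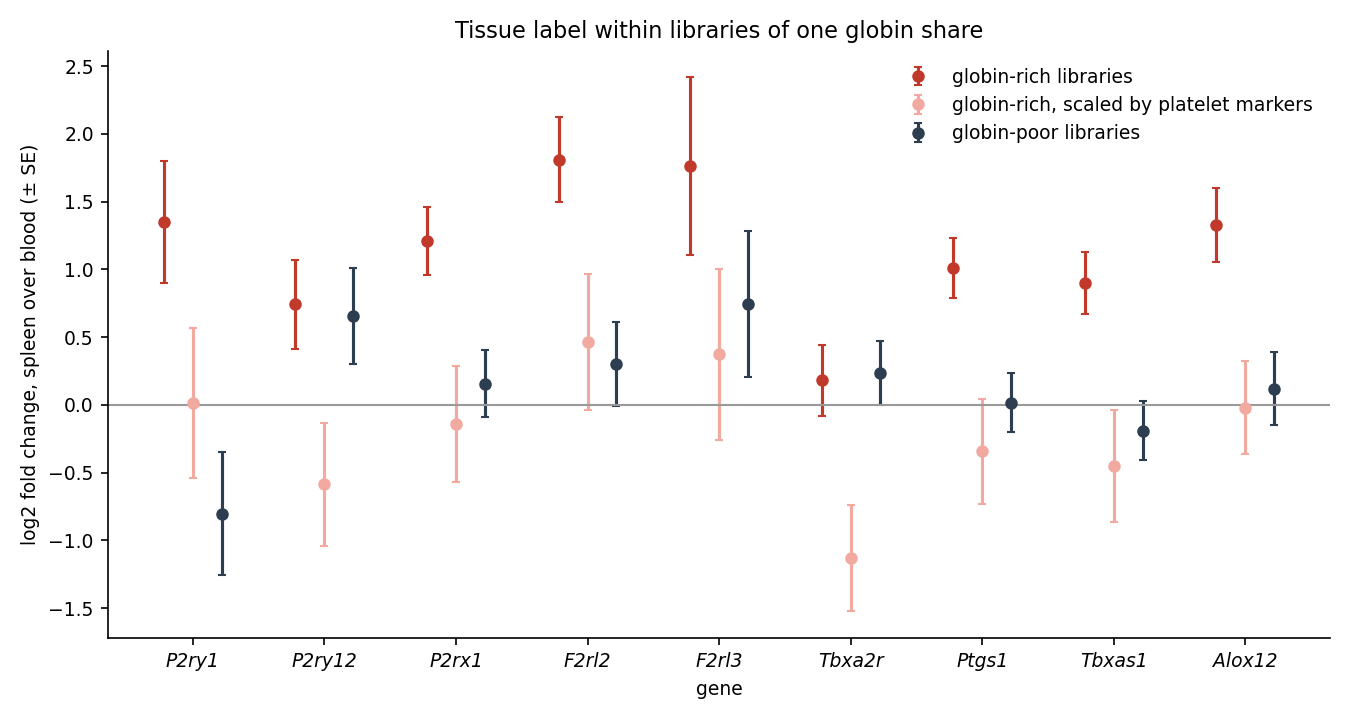
Log2 fold change of spleen over blood labels for each gene, with standard errors, within globin-rich libraries, within the same libraries scaled by 15 platelet markers, and within globin-poor libraries. F2rl2, Alox12, P2rx1 and Ptgs1 are the 4 genes called in globin-rich libraries, and their platelet-scaled values lie between -0.34 and 0.46.

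No receptor or enzyme passed the test between KO and WT at an adjusted p under 0.05. With genotype as the only term, edgeR called 0 of 9 genes and 0% of 15362 genes in spleen, and 0 of 9 and 0% of 14939 genes in blood. At an unadjusted p under 0.05, 370 genes passed in spleen and 24 in blood, none of them among the 9, and DESeq2 and limma-voom called no gene in either tissue. Counts were also simulated from the mean levels of each stratum. The spread within strata was set to the same value for all genes and not taken from these libraries. On them the same fits called none of the changed genes, so a count of 0 here says little about real differences. In spleen the KO over WT log2 change was -1.86 ± 1.94 for Alox12, -2.09 ± 1.77 for P2rx1 and -2.01 ± 1.42 for F2rl2, and in blood it was 0.95 ± 1.65, 0.98 ± 1.49 and 0.72 ± 1.02 for the same genes (SE). The 9 genes had a median of -1.41 in spleen and 0.51 in blood, beside 0.019 and -0.046 over all genes tested and -1.76 and 0.79 over the platelet markers. KO spleen held 1 globin-rich library against 2 in WT spleen, and KO blood held 2 against 1 in WT blood. In both tissues the median change of the 9 genes was toward the genotype with more globin-rich libraries. The part of this imbalance in these changes was not tested.

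The difference of the KO effect, spleen minus blood, was called for 0 of 9 genes and for 0% of 16858 genes by edgeR, with 171 genes but none of the 9 at an unadjusted p under 0.05 and none called by DESeq2 or limma-voom. None of the 9 genes separated the KO from the WT libraries of spleen or of blood, beside 4.17% and 3.8% of all genes.

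The genotypes were also compared within strata of label and globin share. EdgeR again called 0 of 9 genes and 0% of 18118 genes, 1398 genes but none of the 9 had an unadjusted p under 0.05, and DESeq2 and limma-voom called none of the 9. The log2 change of KO over WT was -0.11 ± 0.20 for Alox12, -0.12 ± 0.17 for Tbxas1, -0.17 ± 0.16 for Ptgs1, 0.036 ± 0.24 for P2ry12 and 0.063 ± 0.34 for P2ry1 (SE). The standard error for Alox12 was thus 0.20, against 1.94 in spleen and 1.65 in blood with genotype alone. The widest values were -0.89 ± 0.45 for F2rl3 (edgeR adjusted p = 0.646), -0.38 ± 0.19 for P2rx1 (edgeR adjusted p = 0.646), -0.26 ± 0.23 for F2rl2 and 0.26 ± 0.18 for Tbxa2r. The median of the 9 was -0.12, against 0.035 over all genes and -0.14 over the 15 platelet markers.

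In each of the 4 strata 1 library of one genotype stood against 2 of the other. KO libraries lay below WT libraries in 3 strata for P2rx1 and Ptgs1, and in at least 3 strata for 15.4% of all genes. They lay above in 3 strata for Tbxa2r, and in at least 3 strata for 10.1% of all genes. In the remaining stratum P2rx1 was mixed, Ptgs1 above and Tbxa2r below. The other 6 genes lay on one side in at most 2 strata. Within the globin-rich libraries Tbxa2r was the 1 gene of 9 whose KO libraries (14.5 to 18.6 CPM) all lay above the WT libraries (10.01 to 11.5 CPM), which held for 6.28% of all genes, and none of the 9 separated the genotypes within globin-poor libraries.

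Using only globin-rich blood and globin-poor spleen, the libraries whose markers fit their labels, the KO over WT log2 change was -0.012 ± 0.18 for P2rx1, -0.17 ± 0.54 for F2rl3 and 0.21 ± 0.23 for Alox12, again with none of the 9 called. Scaled by platelet markers it was -0.22 ± 0.31 for P2rx1 and 0.057 ± 0.25 for Alox12. A p above the threshold does not show that the levels were equal.

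**Figure D4:**
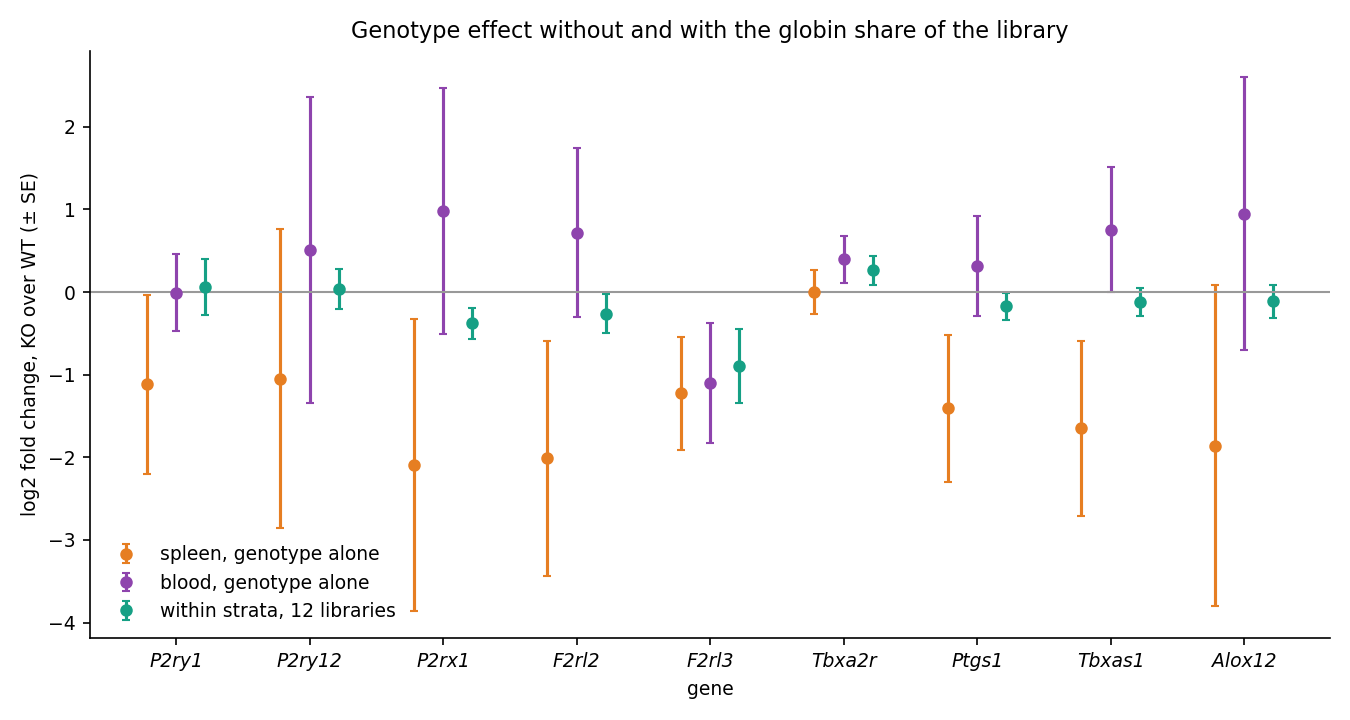
Log2 fold change of KO over WT for each gene, with standard errors, in spleen and in blood with no term but genotype, and within strata of tissue label and globin share over 12 libraries. Standard errors for Alox12 are 1.94, 1.65 and 0.20 in these 3 fits, and no gene is called in any of them.

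The wider pathway was followed through 5 gene lists. Their counts are to be read against all genes, of which 3.03% lay higher and 42.1% lower in every globin-rich than in every globin-poor library. Among 12 other receptors for purines, thrombin and amines, 5 lay lower and 7 overlapped, a share close to that of all genes. F2r, which encodes protease-activated receptor 1, the thrombin receptor of endothelium and smooth muscle that mouse platelets lack, had 4.88 to 14.3 CPM in globin-rich libraries against 19.5 to 40.8 CPM in globin-poor ones. The serotonin receptor gene Htr2a reached at most 0.686 CPM in any library. Of 12 prostanoid and lipid mediator receptors, 1 lay higher and 3 lower. Ptgir, the prostacyclin receptor that restrains platelets, had 6.26 to 12.8 CPM in globin-rich libraries against 3.39 to 7.69 CPM in globin-poor ones and overlapped.

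Of 17 other eicosanoid enzymes, 2 lay higher in all globin-rich libraries, 9 lower and 6 overlapped. The 2 were Alox5 (13.1 to 51.7 against 2.73 to 6.53 CPM) and its partner Alox5ap (76.8 to 248 against 18.3 to 39.3 CPM), which start leukotriene synthesis in myeloid cells. Ptgis, prostacyclin synthase of the vessel wall, had at most 0.977 CPM in globin-rich libraries against 8.10 to 28.0 CPM in globin-poor ones, and Ptgs2, cyclooxygenase 2, had at most 2.06 CPM in any library. Among 15 G proteins and effectors downstream of these receptors, 1 lay higher and 3 lower. That 1 was Rgs18, a brake on G protein signalling in platelets, with 77.4 to 199 CPM in globin-rich libraries against 6.56 to 11.8 CPM in globin-poor ones. Of 5 genes of nucleotide storage and removal, Slc29a1, the equilibrative nucleoside transporter, lay lower in globin-rich libraries (4.11 to 7.68 against 72.5 to 214 CPM) and 4 overlapped.

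Within strata edgeR called no gene of these 5 lists between KO and WT. At an unadjusted p under 0.05, which 7.72% of all genes had, there were 3 genes in the 5 lists together, Aloxe3, Ptgis and Ptges2. The members with the smallest p in each list were P2rx4 and P2ry14 (log2 changes of -0.26 ± 0.16 and -0.56 ± 0.39), Ptger4 and Ptgir (0.32 ± 0.20 and -0.32 ± 0.22), Aloxe3 and Ptgis (-2.48 ± 0.72 and -0.97 ± 0.42), Plcb3 and Gna11 (-0.48 ± 0.30 and 0.25 ± 0.18), and Slc29a1 and Slc17a9 (0.46 ± 0.25 and 0.29 ± 0.20). Their edgeR adjusted p-values lay between 0.642 and 0.700. Aloxe3 had a median of 0.256 CPM in globin-poor libraries and as little as 0 CPM in globin-rich ones. Ptgis had at most 0.977 CPM in globin-rich libraries. The changes of these genes thus rest in part on levels near what a count of 0 allows. Between spleen and blood labels in globin-rich libraries, 2 list genes were called, both higher in spleen: Rgs10 by 1.31 ± 0.21 (edgeR adjusted p = 0.0127) and Alox5ap by 0.98 ± 0.22 (edgeR adjusted p = 0.0468). Rgs10 was 1 of 15 genes tested in its list and Alox5ap 1 of 16, beside 0.778% of all genes called higher. With 1 library left out, this comparison called 1 to 194 genes of all, and these 2 genes were not followed there.

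The genes most like each member in level were ranked by Pearson's r of log2(CPM + 1) over the 12 libraries, which share the globin split and fall into 2 clusters, so r describes that split as much as any finer likeness. Alox12 was closest to Mpig6b (r = 0.999), Itga2b (0.998) and Ctla2b (0.997), and P2rx1 to Itga2b, Treml1 and Mpig6b (0.993 to 0.997). Itga2b encodes the alpha chain of the platelet fibrinogen receptor. P2ry12 was closest to Mctp1 (0.998), F13a1 and Cd226, F2rl2 to Capn3 (0.981), F10 and Ly6g6f, Ptgs1 to Pde5a (0.983), Cd151 and Fermt3, and Tbxas1 to Pttg1ip (0.986), Lgalsl and Gp1ba. Tbxa2r was closest to Stx4a (0.985), Npepl1 and Agpat3, and F2rl3 to Adcy5 (0.933), Gucy1a1 and Loxl1, none of which is a platelet marker of the list used here. P2ry1 had the loosest likeness, to Prkar2b (0.886), Pcmt1 and Parvb. Over the 6 globin-rich libraries alone, r with the platelet marker sum was 0.992 for P2ry1, 0.982 for Alox12, 0.969 for F2rl2, 0.966 for Ptgs1, 0.940 for P2rx1, 0.914 for Tbxas1, 0.727 for P2ry12, 0.714 for F2rl3 and -0.25 for Tbxa2r. These 6 libraries also fall into 2 clusters by label, with platelet marker sums of 11935 to 12444 CPM in spleen and 4190 to 6679 CPM in blood. This r therefore describes the label difference as much as any finer likeness.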

How the data were processed

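RNA was sequenced from KO and WT spleen and blood, 3 libraries per group. The deposited values are raw counts per Ensembl gene, 1 table per library, made by the authors with HTSeq, HISAT2 2.0.4, Trimmomatic 0.36, SAMtools 0.1.19 and FastQC on GRCm38 (mm10), per the submitters' processing notes. The annotation release and the strand setting are not given in the sources used here. Symbols and positions came from GENCODE vM21 of GRCm38, which held 46005 of 46603 identifiers, and promoter sequences from RefSeq.

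Total counts were 9317793 to 28243206, and a count of 0 allows up to 3 counts, which is 0.109 to 0.733 CPM (counting error only). No library pair was alike within sampling noise (smallest chi-square per degree of freedom 8.06). CPM was computed with globin genes left out. A library was globin-rich when globin exceeded 25% of counts.

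Tests were edgeR 4.0.16 quasi-likelihood F tests (robust, filterByExpr, TMM) in R 4.3.3, with Benjamini-Hochberg adjustment over all genes tested and calls under 0.05. Checked on simulated data for 4 of the comparisons, the fits returned median fold sizes near the simulated ones. Genotype within strata called most changed genes, label in globin-rich libraries missed most of the smallest changes, and genotype alone called none. The simulation took stratum means from the data but set the same spread within strata for all genes, so these results hold for that spread only. For the label comparison, globin-rich spleen was given the means of globin-rich blood before the changes were added. Alternatives were other scalings (DESeq2 size factors, TMM without globin and mitochondrial genes, platelet markers), other filters, DESeq2 1.42.0, limma-voom (limma 3.58.1), additive strata terms, a block for the replicate number and fits lacking 1 library. The use of the 2 strata whose markers fit their labels and the test of the difference of label effects were added after the data were seen. The members, lists and strata were chosen with earlier results of these data known. Named were the 9 members, list members called within strata or up to 2 per list with the smallest p and a mean of at least 1 CPM, and the 3 protein-coding genes most correlated with each member (mean of at least 10 CPM). List genes given by their levels or label calls were chosen after their values were seen.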

Additional observations from a re-analysis of the deposited data

How the results depend on the processing

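The tests of KO over WT called 0 of 9 genes under every alternative run, in spleen, in blood, within strata and for the difference of the tissues. Leaving out 1 library at a time called 0 of 9 as well.

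The count of genes called for spleen over blood labels in globin-rich libraries was 4, and it was 2 with a filter of 5 CPM in 3 libraries, 1 with platelet marker scaling, 0 with a replicate block and 0 to 6 with 1 library left out. Platelet marker scaling turned Alox12 to -0.019, P2rx1 to -0.14, P2ry12 to -0.59, Ptgs1 to -0.34, Tbxa2r to -1.13 and Tbxas1 to -0.45 on the log2 scale, and by construction that scaling removes a shift shared with the platelet markers. Leaving out 1 library moved Tbxa2r between -0.057 and 0.34. The difference of the label effects was called for 0 genes, and for 2 without a filter, 5 with DESeq2 and 0 to 5 with 1 library left out. Its value for P2ry12 was -0.040 at 5 CPM and -0.085 with the replicate block, and lay between -0.25 and 0.43 with 1 library left out, and that for Tbxa2r between -0.33 and 0.27. In globin-poor libraries the label effect of Ptgs1 was -0.00625 with limma-voom and lay between -0.058 and 0.25 with 1 library left out, that of Alox12 between -0.038 and 0.43 and that of Tbxa2r between -0.077 and 0.40.

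Of the level counts, 3 genes in place of 5 lay higher in all globin-rich libraries in CPM over all counts, where F2rl2 and Tbxas1 overlapped, and 0 in place of 1 lay lower with TMM factors.

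KO over WT values near 0 changed sign. Within strata P2ry1 was -0.027 with DESeq2 size factors, -0.015 with TMM lacking globin and mitochondrial genes, -0.056 at 5 CPM, -0.0275 with DESeq2 and -0.48 with additive terms, and P2ry12 was -0.057, -0.044, -0.081, -0.042 and, with limma-voom in place of additive terms, -0.052. With globin-rich blood and globin-poor spleen only, values were 0.21 for Alox12, 0.28 for F2rl2, -0.23 for P2ry12, 0.036 for Ptgs1 and 0.089 for Tbxas1, and with platelet marker scaling 0.057 for Alox12 and 0.026 for Tbxas1. With 1 library left out, the ranges within strata were -0.38 to 0.10 for Alox12, -0.61 to 0.023 for F2rl2, -0.48 to 0.32 for P2ry1, -0.15 to 0.21 for P2ry12, -0.40 to 0.015 for Ptgs1 and -0.26 to 0.10 for Tbxas1. In spleen P2ry1 was 0.70 with limma-voom, and Tbxa2r was 0.0061 with TMM lacking globin and mitochondrial genes, 0.073 without a filter and -0.13 to 0.18 with 1 library left out. In blood the ranges with 1 library left out were -0.24 to 0.29 for P2ry1, -0.14 to 4.96 for P2ry12 and -0.0034 to 0.97 for Ptgs1. The difference of the KO effect for F2rl3 was -0.13 with DESeq2 size factors, -0.068 with TMM lacking globin and mitochondrial genes, -0.18 at 5 CPM, -0.13 with DESeq2 and -0.40 to 0.59 with 1 library left out, and for P2ry1 it was 1.01 with limma-voom. The cause of these changes was not tested.

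Replicate numbers are shared by some libraries, but no label ties a number to a mouse. After removing stratum and genotype, same-numbered spleen and blood libraries of 1 genotype correlated at -0.263, -0.0765, -0.0328 and 0.108, and all 13 same-numbered pairs, across genotypes too, at -0.829 to 0.387. Pairs inside 1 stratum are drawn toward negative values by removing its mean, so the low end of that range says nothing of pairing. Not every spleen and blood pair of 1 genotype was over 0.1, so the numbers were not used to pair samples. With the replicate block, 0 of 9 genes were called between KO and WT in each comparison and 0 of 9 between labels in each kind.

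Depth limits F2rl3 most: its globin-rich values rest on 2 to 41 counts.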
